A study of Mus musculus with 8 samples.

Results

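The mitochondrial genome of the mouse was measured through its 37 annotated genes, taken as every gene whose symbol begins with mt-, out of 48709 gene identifiers in the count tables. They comprise 13 protein-coding genes, 2 ribosomal RNA (rRNA) genes and 22 transfer RNA (tRNA) genes. The cells were the progeny of hematopoietic stem and progenitor cells (HSPCs) of C57Bl/6J mice, the lineage-negative, Sca1+ and cKit+ fraction from which blood lineages arise. The 4 malonyl-CoA libraries came from cultures that held 100 µM malonyl-CoA, and the 4 control libraries from cultures without it. Each culture of either group began with 10000 cells and ran for 7 days without serum, on 100 ng/ml stem cell factor and 2 ng/ml Flt3 ligand. Libraries were numbered 1, 3, 4 and 5 in each group and were called biological replicates, with no word on the animals or cultures behind each, so p-values measure the spread between these samples.

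Mitochondrial DNA is a small circle that is transcribed on both strands into long precursors. Most genes lie on the precursor read from the heavy strand, and mt-Nd6 and several tRNA genes lie on that read from the light strand. The tRNAs sit between the mRNAs and rRNAs, and their excision releases the neighbouring RNAs. The 13 proteins are membrane subunits of respiratory complexes I, III and IV and of the ATP synthase, complex V, whereas all other subunits and the proteins that copy, transcribe and translate this genome come from nuclear genes. Malonyl-CoA extends the chain when cells make fatty acids and, at the outer mitochondrial membrane, inhibits CPT1, the enzyme that commits fatty acids to import and oxidation.

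Between 17492085 (malonyl-CoA 5) and 22079844 (control 5) counts per library fell in genes, and every pair of libraries differed by more than sampling noise (chi-square per gene at least 7.63). Hematopoietic markers (6 of 6 tested, Mpo and Kit among them) summed to between 9163 and 12653 CPM with malonyl-CoA and between 7791 and 13354 CPM in control, where CPM is counts per 1000000 gene counts, scaled by TMM. All 4 markers of T, NK and B cells stayed under 1 CPM in every library. Mast cell and basophil markers (3 of 3 tested: Cpa3, Mcpt8 and Ms4a2) summed to 436 to 497 CPM with malonyl-CoA and 532 to 738 CPM in control, and the groups did not overlap. Of all tested genes, 2.93% had every malonyl-CoA library below every control. The part of these cells in the values of mitochondrial genes was not tested. Erythroid markers summed to 1.79 to 2.92 CPM with malonyl-CoA and 2.74 to 3.47 CPM in control, with Hba-a1 and Hbb-bs under 1 CPM. Monocyte and macrophage markers summed to 452 to 615 CPM with malonyl-CoA and 346 to 486 CPM in control. Malonyl-CoA first, granulocyte markers summed to 3860 to 5635 and 4396 to 7521 CPM. Megakaryocyte markers summed to 389 to 619 and 523 to 634 CPM, and stromal and endothelial markers to 37.5 to 46.6 and 33.7 to 42.2 CPM. In all of these, erythroid markers included, the groups overlapped. Malonyl-CoA 4 stood apart at 63.3 on the first principal component of all genes (48.9% of the variance), against -30.4 to 25.3 in the other libraries. In control 5, the deviation of a gene from its mean was related to the GC content of its transcript (Spearman's rho -0.74 across genes, which are not independent replicates). That rho lay between 0.20 and 0.52 with malonyl-CoA and between -0.11 and 0.24 in the other controls.

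Part of the mitochondrial genome has a near-identical nuclear copy. Comparison of the mitochondrial transcripts with all nuclear transcripts of GENCODE M21 (GRCm38) found a run of 7 pseudogene models on chr1:24611535-24616197, minus strand, in the same order as chrM:6390-11042 and matching it at 99% identity or more. The 4653 mitochondrial bases hold 6 coding genes whole (mt-Co2, mt-Atp8, mt-Atp6, mt-Co3, mt-Nd3 and mt-Nd4l), 5 tRNA genes whole, and parts of mt-Co1 and mt-Nd4. Of these, mt-Atp8 and the 5 tRNA genes were matched to no nuclear model and are placed in the stretch by position alone. By default, HTSeq leaves a read with several positions out of every gene. The tables report such reads as a class of their own, 38.2% to 48.9% of tallied reads with malonyl-CoA and 44.3% to 51.1% in control, and from which genes they came cannot be told from the counts.

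The edges of the matched stretch and a base that tells the copies of mt-Nd3 apart are shown because the counts are set beside this stretch in what follows. Whether the copy lowered the counts of the genes in it was not tested. In the edge sequences, capitals mark the copied side, and in the mt-Nd3 pair the base that differs. Sequences are read from the annotated transcripts of GRCm38, plus strand of the mitochondrial genome.
mt-Co1 at the start of the stretch, chrM:6360-6419: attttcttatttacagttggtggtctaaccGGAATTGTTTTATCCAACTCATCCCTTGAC
mt-Nd4 at its end, chrM:11013-11072: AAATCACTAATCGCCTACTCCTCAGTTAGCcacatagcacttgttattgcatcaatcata
mt-Nd3 from its first base, chrM:9459: atTaacctgtacactgttatcttcatta
Gm28438, the chromosome 1 copy of mt-Nd3: atCaacctgtacactgttatcttcatta
Counted from 1 at the 5′ end of each mitochondrial gene, the copies differ from it by T3C in mt-Nd3 and by A1066T in the 483 matched bases of mt-Co1. That match begins at base 1063, and the sequences differ upstream of it. Whether A1066T lies inside the copy or marks its edge cannot be told. The matched parts of mt-Co2 (681 bases), mt-Atp6 (678 bases), mt-Co3 (783 bases), mt-Nd4l (294 bases) and mt-Nd4 (876 bases) were identical to their copies. Bases between the matched parts were not compared, so other differences may exist. By coordinates, the spacing from mt-Nd3 to mt-Nd4l is not the same in the copy as in the mitochondrial genome.

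Counts differed along the genome. The 6 coding genes that lie whole in the stretch held 120 counts in all 8 libraries together, and its 5 tRNA genes held 0. The 2 coding genes that lie partly in it, mt-Co1 and mt-Nd4, held 2562712 counts, and the 5 outside it 2640071. The 7 nuclear models of the stretch were themselves near 0, with 72 counts together. Other nuclear copies matched less closely. Over all 17 models at 90% identity or more over at least 100 bases, 16 of them in the tables, the sum per library was 33 to 201 counts. Gm13341 (a copy of mt-Co2 on chromosome 2, 95.9% identity) held 26, 21, 12 and 47 counts in malonyl-CoA 1, 3, 4 and 5, against 26, 37, 27 and 74 in control 1, 3, 4 and 5. Gm13340 (mt-Co1, 97.6% identity) held 9, 8, 17 and 30 counts with malonyl-CoA, against 26, 28, 31 and 107 in control. Gm10222 (mt-Nd4l) and Gm28438 (mt-Nd3) held 32 and 23 counts in all, and Gm28437 (mt-Co3) and Gm29216 (mt-Co1) 6 each. All these sums are small beside the mRNAs, and the highest library of Gm13341 and Gm13340 was control 5.

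**Figure D1:**
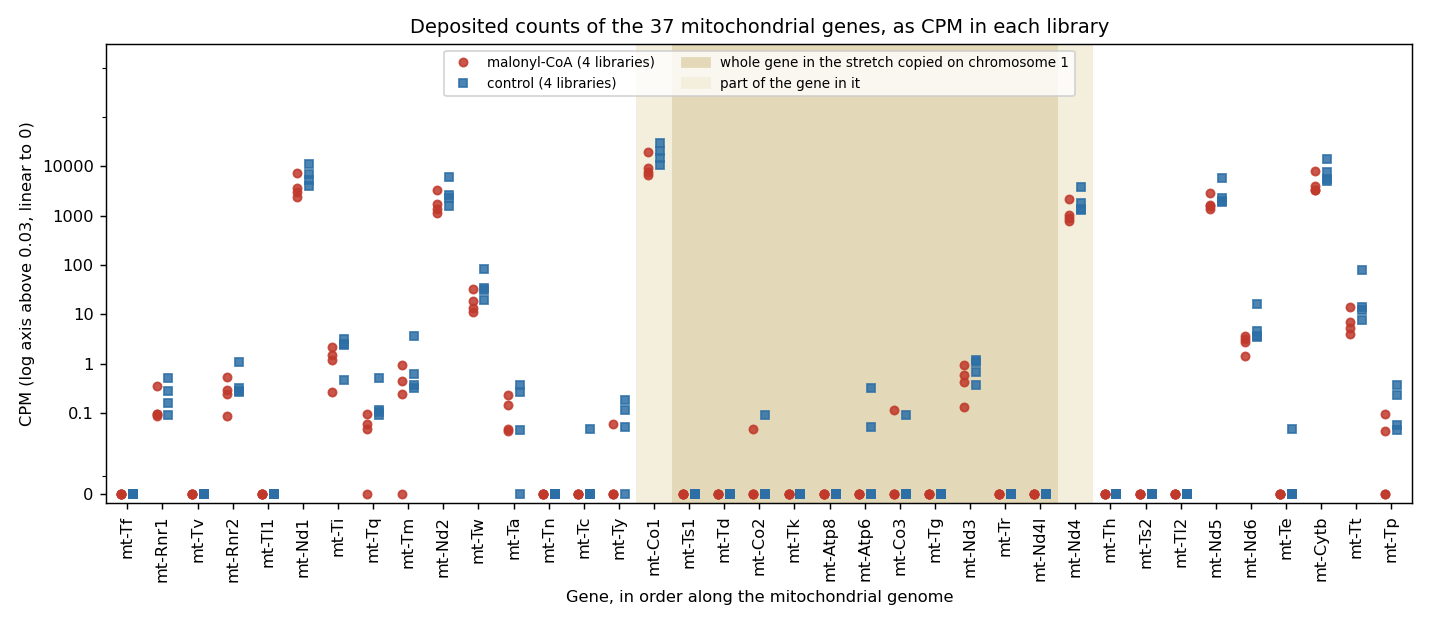
CPM of the 37 genes in each library (circles, malonyl-CoA; squares, control), in order along the mitochondrial genome, on an axis that is logarithmic above 0.03 and linear to 0. Shading marks the stretch copied on chromosome 1; the 11 genes wholly inside it stay at or under 1.17 CPM, whereas mRNA genes outside it and at its edges reach 779 to 29284 CPM, apart from the light-strand gene mt-Nd6.

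In the test over all genes, 11 of the 37 genes had enough counts (8 coding, 3 tRNA), and 26 did not, of which 14 had no count in any library. None of the 11 passed the threshold of an adjusted p under 0.05 (edgeR's quasi-likelihood test with Benjamini-Hochberg adjustment over 12696 genes; adjusted p between 0.519 and 0.603). Over all genes 0 were called (0.0%), and the smallest adjusted p was 0.181. DESeq2, which called 0.555% of all genes, and limma-voom (0.0%) called none of them either, with a lowest DESeq2 adjusted p of 0.295. With the replicate number as a block, mt-Tw was called (edgeR adjusted p = 0.0467), beside 0.992% of all genes. The labels do not say what that number marks, and it was not taken as pairing the samples. In 0 of the 11 did the groups not overlap, beside 2.93% of all genes with every malonyl-CoA library below every control. All 11 log2 fold changes, malonyl-CoA over control, were below 0, with a median of -0.77, beside 46.7% of all genes below 0 and a median over all genes of 0.02. At an unadjusted p under 0.05 stood mt-Nd6, mt-Tt and mt-Tw, 3 of the 11, beside 4.05% of all genes on the lower side. DESeq2, run without the low-count filter, put 5 of 23 mitochondrial genes there, counted in either direction. Of these 23, 15 had an adjusted p. Among all genes with a DESeq2 adjusted p, 3.7% stood there on the lower side. With limma-voom it was 1 of the 11, beside 3.91% of all genes on the lower side. The 11 are neighbours on the same precursors and were measured in the same libraries, so they are not separate observations of the treatment. In bulk cultures, fewer cells of a type and less RNA per cell cannot be told apart.

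Complex I, the NADH dehydrogenase that feeds electrons into the chain, has 7 subunits in this genome. The gene mt-Nd1 (ENSMUSG00000064341, chrM:2751-3707) encodes a core subunit of the membrane arm next to the quinone site. It stood at 3002, 3615, 2401 and 7265 CPM in malonyl-CoA 1, 3, 4 and 5, against 6913, 5174, 3996 and 11174 CPM in control 1, 3, 4 and 5. The groups overlapped: malonyl-CoA 5 was above 3 of the 4 controls, and the other 3 malonyl-CoA libraries were below all controls. The means were 4071 ± 2186 CPM with malonyl-CoA and 6814 ± 3144 CPM in control (SD, n = 4 each), a log2 fold change of -0.74 (SE 0.40, edgeR adjusted p = 0.525).

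The subunits encoded by mt-Nd2, mt-Nd4 and mt-Nd5 are the antiporter-like proteins of the proton-pumping arm. The gene mt-Nd2 (ENSMUSG00000064345, chrM:3914-4951) had 1356, 1700, 1119 and 3304 CPM with malonyl-CoA, against 2675, 2253, 1554 and 6087 CPM in control. The gene mt-Nd4 (ENSMUSG00000064363, chrM:10167-11544) had 779, 1018, 888 and 2167 CPM with malonyl-CoA, against 1823, 1393, 1318 and 3746 CPM in control, mostly from the 502 bases outside the copied stretch if reads with several positions were left out. The gene mt-Nd5 (ENSMUSG00000064367, chrM:11742-13565) had 1351, 1590, 1630 and 2903 CPM with malonyl-CoA, against 2287, 1908, 1980 and 5841 CPM in control. In mt-Nd2, malonyl-CoA 3 was above control 4. In all 3 genes the library numbered 5 was the highest of its group, and malonyl-CoA 5 was above the 3 lower controls. Their log2 fold changes were -0.75 (SE 0.46) for mt-Nd2, -0.77 (SE 0.41) for mt-Nd4 and -0.68 (SE 0.40) for mt-Nd5 (edgeR adjusted p = 0.543, 0.525 and 0.530).

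The small membrane subunit ND6 is the protein encoded on the other strand. Its gene mt-Nd6 (ENSMUSG00000064368, chrM:13552-14070, minus strand) had 1.46, 3.13, 2.81 and 3.67 CPM with malonyl-CoA (30, 64, 63 and 62 counts), against 4.68, 3.44, 3.68 and 16.1 CPM in control (82, 64, 79 and 342 counts). Malonyl-CoA 1, 3 and 4 were below every control and malonyl-CoA 5 above 1 of them, and control 5 lay 4.08 times above the mean of the other 3 controls. The fitted difference was -1.34 on the log2 scale (SE 0.53, edgeR adjusted p = 0.519), and -0.51 without control 5. Its 3′ end shares 14 bases with the 3′ end of mt-Nd5 on the opposite strand, in capitals here (plus strand, chrM:13532-13565): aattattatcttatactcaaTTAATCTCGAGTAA. The sources used here do not give the strand setting of the counting, so reads of mt-Nd6 cannot be told apart from reads of heavy-strand RNA across it.

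The other 2 subunits of complex I, ND3 and ND4L, lie in the copied stretch. The gene mt-Nd3 (ENSMUSG00000064360, chrM:9459-9806) had 9, 12, 3 and 16 counts with malonyl-CoA, against 19, 13, 8 and 25 counts in control (log2 fold change -0.69, SE 0.52, edgeR adjusted p = 0.585), and mt-Nd4l had none in any library. A count of 0 in all libraries allows up to 3 counts, or 0.0189 CPM over all 8 together; this covers counting error and says nothing of the RNA itself where reads have several positions. The end of mt-Nd4l and the start of mt-Nd4 share 7 bases of 1 bicistronic mRNA, in capitals (chrM:10147-10193): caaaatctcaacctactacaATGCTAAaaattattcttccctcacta.

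Complex III passes electrons from ubiquinol to cytochrome c, and mt-Cytb (ENSMUSG00000064370, chrM:14145-15288) encodes its cytochrome b. It stood at 3255, 3916, 3268 and 7986 CPM with malonyl-CoA, against 7675, 5460, 5135 and 14109 CPM in control. The 3 lower malonyl-CoA libraries were below every control, and malonyl-CoA 5 lay above 3 controls. Means were 4606 ± 2274 CPM with malonyl-CoA and 8095 ± 4165 CPM in control (SD, n = 4 each), with a log2 fold change of -0.81 (SE 0.40, edgeR adjusted p = 0.523).

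Complex IV, cytochrome c oxidase, reduces oxygen, and mt-Co1 (ENSMUSG00000064351, chrM:5328-6872) encodes its catalytic subunit. It was the most abundant of the 37 genes in all 8 libraries, at 7647, 9276, 6635 and 19705 CPM with malonyl-CoA, against 19969, 14610, 10674 and 29284 CPM in control. Malonyl-CoA 5 was within the range of the controls, and the other 3 were below it. Malonyl-CoA over control, this gave -0.78 on the log2 scale (SE 0.41, edgeR adjusted p = 0.523). The electron-accepting subunit II gene mt-Co2 had 1 count with malonyl-CoA and 2 in control over all libraries of the group, and mt-Co3, for the third core subunit, had 2 and 2. Both lie whole in the copied stretch and have too few counts to compare.

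Complex V makes ATP from the proton gradient. Its proton-channel subunit gene mt-Atp6 had 0 counts in the 4 malonyl-CoA libraries and 0, 1, 0 and 7 counts in control 1, 3, 4 and 5, and mt-Atp8 had 0 in all 8. These genes share 43 bases in different reading frames inside the copied stretch, in capitals (chrM:7907-7989): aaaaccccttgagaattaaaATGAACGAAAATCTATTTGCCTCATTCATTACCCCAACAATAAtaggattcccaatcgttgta. With these few counts the mitochondrial subunits of ATP synthase cannot be compared.

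**Figure D2:**
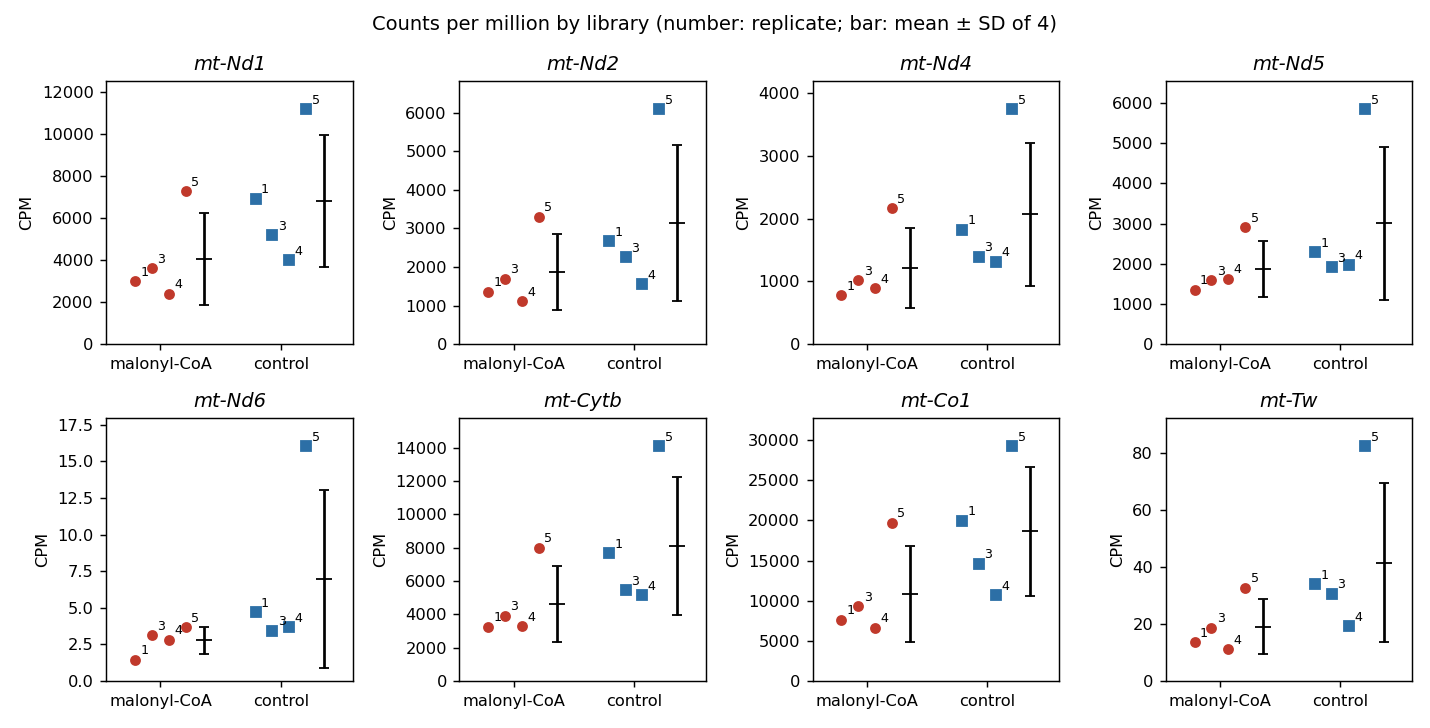
CPM of 7 coding genes and mt-Tw by library, malonyl-CoA left and control right; numbers give the replicate and black bars the mean ± SD of 4 libraries. In mt-Nd1, mt-Nd2, mt-Nd4, mt-Nd5, mt-Cytb and mt-Co1 the library numbered 5 is the highest of each group and malonyl-CoA 5 overlaps the controls.

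The size of the difference depended on the libraries numbered 5, which were high in both groups. Control 5 lay 1.94 times above the mean of the other controls in mt-Co1 and 2.08 times in mt-Nd1. In mt-Cytb and mt-Nd5 it lay 2.32 and 2.84 times above that mean. Malonyl-CoA 5 lay 1.91 to 2.51 times above the mean of the other malonyl-CoA libraries in the same genes. There, each of malonyl-CoA 1, 3 and 4 was below each of control 1, 3 and 4, and so it was in mt-Nd4, mt-Nd6, mt-Tw and mt-Tt. It was not so in mt-Nd2, mt-Nd3 and mt-Ti. In these, malonyl-CoA 3 was above control 4 (1700 and 1554 CPM, 0.586 and 0.373 CPM, and 1.51 and 0.466 CPM). A fit without both libraries numbered 5 was not run. Without control 5 the log2 fold changes of the 8 coding genes were -0.51 to -0.14, without malonyl-CoA 5 they were -1.50 to -0.98, and without both control 5 and malonyl-CoA 4 they were -0.52 to -0.03. With all 8 libraries they were -1.34 to -0.68. The tested mitochondrial genes have transcripts of 27.5% to 40.3% GC, against a median of 49.4% over all tested genes, and only 7.21% of tested genes are at or under 40.3%. With a GC correction in each library the 8 log2 fold changes were -1.04 to -0.44. No gene among them was called in any of these settings.

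**Figure D3:**
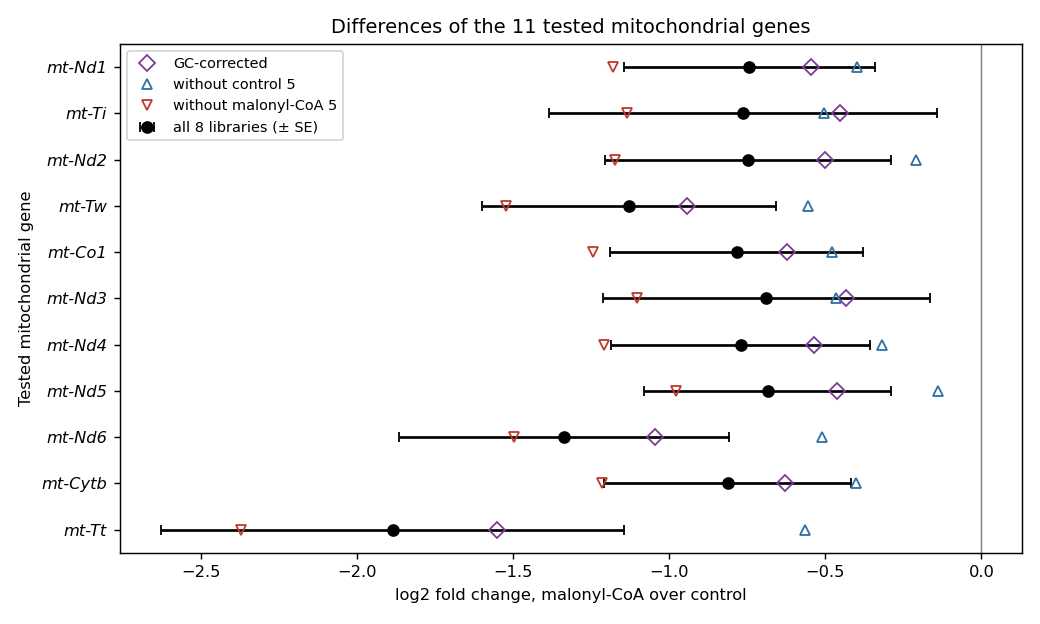
Log2 fold change, malonyl-CoA over control, of the 11 tested genes in genome order, with all 8 libraries (black, ± SE), after a GC correction per library (diamonds), without control 5 (upward triangles) and without malonyl-CoA 5 (downward triangles). All points lie below 0; those without control 5 are nearer to 0 than those with all 8 libraries in each of the 11 genes, at -0.14 for mt-Nd5.

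As a share of gene counts, all 37 genes together took 1.76%, 2.17%, 1.68% and 4.20% in malonyl-CoA 1, 3, 4 and 5, against 3.98%, 3.04%, 2.55% and 6.79% in control 1, 3, 4 and 5. Malonyl-CoA 1, 3 and 4 were below all controls, and malonyl-CoA 5 was above 3 of them. Complex I mRNAs took 0.904% ± 0.413 with malonyl-CoA and 1.47% ± 0.767 in control, mt-Cytb 0.462% ± 0.209 and 0.791% ± 0.392, and complex IV mRNAs 1.08% ± 0.559 and 1.82% ± 0.749 (SD, n = 4 each, malonyl-CoA first). No p is given for these sums over the genes. The difference in the share of all 37 genes was -1.64 percentage points, and -0.736 without control 5 or -2.22 without malonyl-CoA 5.

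The make-up of the coding mitochondrial counts varied less than their total. Complex I genes made up 37.3%, 37.5%, 37.9% and 36.1% of them with malonyl-CoA, against 33.1%, 34.8%, 35.9% and 38.2% in control. Complex IV genes, nearly all mt-Co1, made up 44.0%, 43.9%, 41.6% and 45.5% with malonyl-CoA, against 48.3%, 47.4%, 43.3% and 41.7% in control. Within the groups, malonyl-CoA 4 and control 5 had the lowest complex IV shares. The level of mt-Co1 spanned 4.41-fold over the 8 libraries, whereas its level per length relative to mt-Nd1 was 2.30 to 2.49 with malonyl-CoA and 2.36 to 2.60 in control. The ratio of mt-Nd5 to mt-Nd1, per length, varied more, at 0.210 to 0.356 with malonyl-CoA and 0.174 to 0.274 in control.

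Levels were compared between genes as CPM per kilobase of the bases outside the copied stretch. On that scale mt-Co1 was at 10184 ± 5674 with malonyl-CoA and 17547 ± 7587 in control, mt-Nd1 at 4254 ± 2285 and 7121 ± 3285, and mt-Cytb at 4026 ± 1988 and 7076 ± 3641 (SD, n = 4 each, malonyl-CoA first). Next came mt-Nd4 (2416 with malonyl-CoA and 4124 in control), mt-Nd2 (1801 and 3027) and mt-Nd5 (1024 and 1647), with mt-Nd6 far below (5.33 and 13.4). Each step of this order held in 8 of 8 libraries except that of mt-Nd1 over mt-Cytb, which held in 5 and whose ratio was 0.878 to 1.13. The place of mt-Co1 and mt-Nd4 rests on the assumption that reads inside the copied stretch gave them no counts.

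Both rRNAs, the RNA core of the mitochondrial ribosome, were almost absent from the tables although they lie outside the copied stretch. The small-subunit rRNA gene mt-Rnr1 (chrM:70-1024) had 2, 2, 2 and 6 counts with malonyl-CoA, against 5, 3, 2 and 11 counts in control. The large-subunit rRNA gene mt-Rnr2 (chrM:1094-2675) had 5, 6, 2 and 9 counts with malonyl-CoA, against 5, 5, 7 and 23 counts in control. Both were under the count filter and were not tested.

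Of the 22 tRNA genes, 10 had a count and 12 had none in any library. The 14 on the heavy-strand precursor held 8126 counts, from 4 of them (mt-Ti, mt-Tm, mt-Tw and mt-Tt), and the 8 on the light-strand precursor held 71, from 6 of them (mt-Tq 21, mt-Ta 23, mt-Tp 17, mt-Ty 8, mt-Tc 1 and mt-Te 1). With the strand setting not known, the counts of these light-strand tRNAs may, like those of mt-Nd6, hold reads of the opposite strand. Of the 4 heavy-strand tRNAs with counts, mt-Ti, mt-Tw and mt-Tt begin at or within 2 bases of the end of an mRNA gene (mt-Nd1, mt-Nd2 and mt-Cytb), and mt-Tm ends at the base before mt-Nd2. The same kind of place is held by heavy-strand tRNA genes without a count outside the copied stretch: mt-Th begins at 11546, after the end of mt-Nd4 at 11544, mt-Tl1 ends at the base before mt-Nd1, and mt-Tl2 ends at the base before mt-Nd5. Of these, mt-Th follows an mRNA gene, as mt-Ti, mt-Tw and mt-Tt do, whereas mt-Tl1 and mt-Tl2 precede one, as mt-Tm does. The heavy-strand tRNA genes outside the stretch that border no mRNA gene (mt-Tf, mt-Tv and mt-Ts2) had no count either. Whether a count stands for a mature tRNA or for an mRNA that reaches into the tRNA was not tested, since the tables give no read positions.

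The tRNAs with the most counts were mt-Tw, for tryptophan, and mt-Tt, for threonine, shown with their anticodons in capitals and with the 2 bases that mt-Tw shares with mt-Nd2.
mt-Tw, chrM:4950-5016: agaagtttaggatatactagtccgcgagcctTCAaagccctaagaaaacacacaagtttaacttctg
mt-Tt, chrM:15289-15355: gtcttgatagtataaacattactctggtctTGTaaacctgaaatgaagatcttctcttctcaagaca
end of mt-Nd2 and start of mt-Tw, shared bases in capitals, chrM:4930-4971: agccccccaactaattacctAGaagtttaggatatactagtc
The gene mt-Tw (ENSMUSG00000064346) had 13.6, 18.8, 11.1 and 32.8 CPM with malonyl-CoA, against 34.1, 30.7, 19.2 and 82.6 CPM in control. Malonyl-CoA 5 was above 2 controls, with the other 3 below all controls, and the log2 difference was -1.13 (SE 0.47, edgeR adjusted p = 0.523). The gene mt-Tt (ENSMUSG00000064371) had 5.31, 7.13, 4.02 and 14.4 CPM with malonyl-CoA, against 14.4, 12.05, 7.73 and 79.4 CPM in control. Here control 5 lay 6.97 times above the mean of the other controls; the log2 difference was -1.89 (SE 0.74, edgeR adjusted p = 0.519), and -0.56 without that library. For isoleucine, mt-Ti had 0.268 to 2.19 CPM with malonyl-CoA and 0.466 to 3.19 CPM in control (log2 fold change -0.76, SE 0.62, edgeR adjusted p = 0.603). For methionine, mt-Tm had 5, 9, 0 and 16 counts with malonyl-CoA, against 11, 7, 7 and 77 counts in control, and was not tested.

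Ratios between mitochondrial genes of 1 library need no library scaling. Of 6 such ratios, chosen after the counts were seen, the share of mt-Tw in the counts of mt-Tw and mt-Nd2 together was the one whose groups did not overlap. It was 0.992%, 1.09%, 0.984% and 0.983% in malonyl-CoA 1, 3, 4 and 5, against 1.26%, 1.34%, 1.22% and 1.34% in control 1, 3, 4 and 5. The malonyl-CoA libraries lay within a narrow range, malonyl-CoA 5 included, and so did the controls. The means were 1.01% ± 0.053 with malonyl-CoA and 1.29% ± 0.061 in control (SD, n = 4 each). The exact permutation test (two-sided) gave p = 0.0286, the smallest that 4 against 4 can give, and an adjusted p of 0.171 over the 6 ratios, which a lone ratio at that p could not bring under 0.05. The counting intervals of the nearest libraries overlapped, at 0.988% to 1.21% in malonyl-CoA 3 and 1.11% to 1.34% in control 4 (Wilson, 95%). The difference was -0.277 percentage points, and -0.303 to -0.259 with any 1 library left out. Transcripts of mt-Tw and mt-Nd2 have 40.3% and 35.7% GC.

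The other 5 ratios overlapped between the groups. The share of mt-Tt in the counts of mt-Tt and mt-Cytb was 0.163%, 0.182%, 0.123% and 0.180% with malonyl-CoA, against 0.187%, 0.220%, 0.1504% and 0.560% in control (exact permutation p = 0.2, adjusted p = 0.386). The light-strand mRNA mt-Nd6 per mt-Nd5, per length, was 0.00530 ± 0.00144 with malonyl-CoA and 0.00743 ± 0.00153 in control (mean ± SD, 4 libraries each), with an exact permutation p of 0.114 (adjusted p = 0.343). Between heavy-strand mRNAs, the adjusted exact permutation p was 0.386 for mt-Co1 over mt-Nd1, 0.411 for mt-Nd1 over mt-Nd2 and 0.543 for mt-Nd5 over mt-Nd1.

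**Figure D4:**
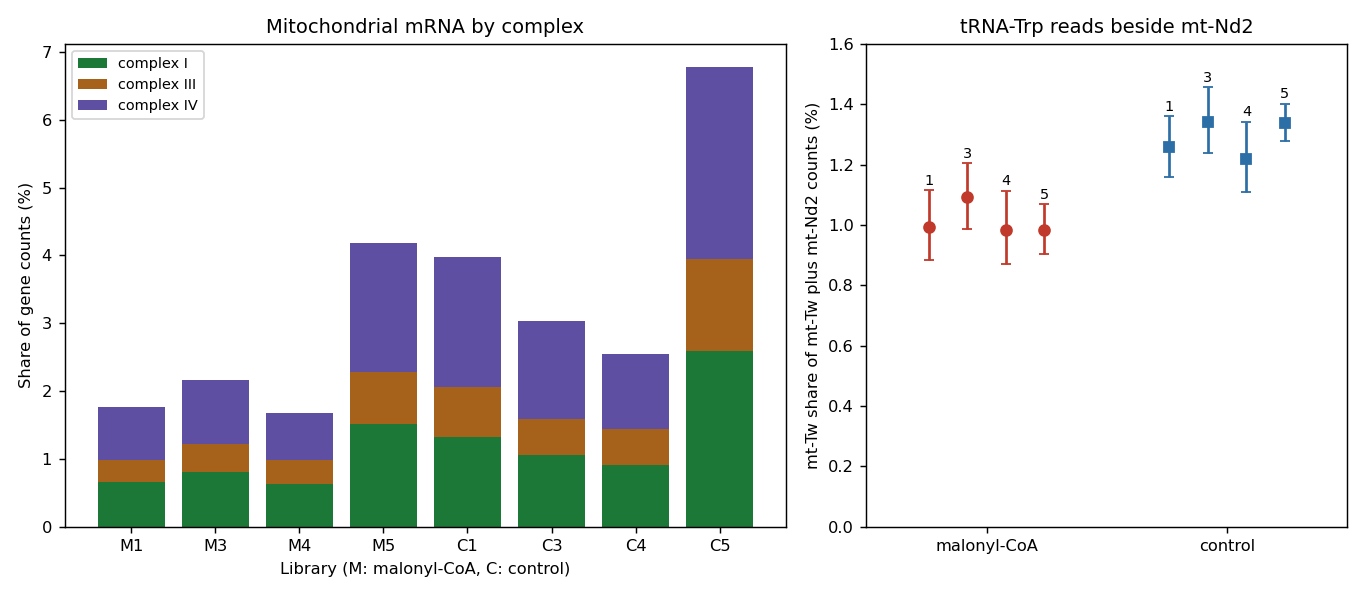
Left, share of gene counts in mitochondrial mRNAs of complexes I, III and IV, stacked, for each library (M, malonyl-CoA; C, control). Right, share of mt-Tw in the counts of mt-Tw plus mt-Nd2, with 95% Wilson intervals that cover counting error; the malonyl-CoA libraries lie between 0.983% and 1.09% and the controls between 1.22% and 1.34%.

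The nuclear genes that serve this genome were counted from fixed lists, and none of their members passed the test over all genes. Of 17 genes of mitochondrial DNA replication and transcription, 6 had a log2 fold change above 0 and 11 below (median -0.09). Among them Tfam, which packages the genome and starts its transcription, averaged 91.9 ± 11.7 CPM with malonyl-CoA and 115 ± 17.1 CPM in control (SD, n = 4 each), a log2 difference of -0.33 (SE 0.14, edgeR adjusted p = 0.523), and Mterf2, of the mitochondrial termination factor family, had -0.42 (SE 0.17, edgeR adjusted p = 0.523). By library Tfam had 90.6, 91.6, 78.4 and 107 CPM with malonyl-CoA, against 111, 109, 101 and 140 CPM in control, so that malonyl-CoA 5 overlapped 1 control. These were the 2 of the 17 at an unadjusted p under 0.05 on the lower side, where 4.05% of all genes stood.

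Genes of RNA processing and decay (6 of 22 above 0, median -0.09) included Fastkd2, a binder of mitochondrial RNA, at 41.1 ± 3.40 CPM with malonyl-CoA and 49.0 ± 4.28 CPM in control, and Tbrg4, of the same FASTK family, at 67.1 ± 16.01 CPM with malonyl-CoA and 52.0 ± 10.3 CPM in control (SD, n = 4 each). Genes of rRNA and tRNA modification had 8 of 20 above 0 (median -0.08), and translation factors 5 of 12. Of 6 tested regulators of mitochondrial biogenesis 4 were above 0 (median 0.18), with Pprc1, a coactivator of the PGC-1 family, at 58.2 ± 17.2 CPM with malonyl-CoA and 40.1 ± 10.6 CPM in control (SD, n = 4 each), a log2 difference of 0.54 (SE 0.23, edgeR adjusted p = 0.523). In malonyl-CoA 4, the library that stood apart, Pprc1 was highest, at 83.8 CPM.

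Nuclear subunits of the complexes had list medians nearer to 0 than the mitochondrial genes. Above 0 were 12 of 36 for complex I (median log2 fold change -0.10), 1 of 4 for complex II (-0.12), which has no subunit in mitochondrial DNA, 5 of 9 for complex III (0.07), 3 of 11 for complex IV (-0.11) and 2 of 16 for complex V (-0.16). Over all tested genes 46.7% were below 0. Of the complex I subunits, Ndufb2 had the smallest unadjusted p and averaged 19.9 ± 2.43 CPM with malonyl-CoA and 26.3 ± 4.21 CPM in control (SD, n = 4 each), a log2 difference of -0.40 (SE 0.16, edgeR adjusted p = 0.519). Next came Ndufb4, which averaged 8.59 ± 2.79 CPM with malonyl-CoA and 14.6 ± 7.21 CPM in control (SD, n = 4 each), a log2 difference of -0.77 (SE 0.34, edgeR adjusted p = 0.523), with control 5 at 25.4 CPM. The difference between mitochondrial and nuclear subunits was not tested.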

How the data were processed

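The deposited tables give whole-number counts for each Ensembl gene, unscaled by the authors, in a table per library. A stranded kit for total RNA was used on 350 ng per sample, per the labels' protocols. The submitters' processing notes name cutadapt 1.8, STAR 2.5.2b, HTSeq 0.6.1 and GRCm38. The strand setting and annotation release of the counting are not given in these sources. The counter's classes that name no gene (no feature 1.11% to 2.94% of tallied reads, ambiguous 0.715% to 0.891%, several positions 38.2% to 51.1%) entered neither library sizes nor tests. Of 48709 identifiers, 48349 matched GENCODE M21, the source of symbols, coordinates and sequences.

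All 37 genes with a symbol beginning mt- were taken, and the text accounts for each, by RNA class and complex. From each nuclear list it names at most the 2 genes with the smallest unadjusted p, and of the nuclear copies the 5 with the most counts (6, with a tie). The genes, lists and tests were chosen with earlier results of these data known, and the 6 ratios after the counts were seen. The nuclear lists were written from general knowledge.

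The gene test was edgeR 4.0.16 in R 4.3.3: filterByExpr (minimum count 10, minimum total 15), TMM factors, robust glmQLFit and two-sided glmQLFTest without covariates, with Benjamini-Hochberg adjustment over 12696 genes and a threshold of 0.05. A standard error is the size of the log2 fold change divided by the root of F. Log2 CPM used a prior count of 2. Alternatives were other scalings and filters, DESeq2 1.42.0, limma-voom (limma 3.58.1), the replicate number as a block, libraries left out, and a GC correction (loess offsets per library, span 0.5, fitted where mean log2 CPM exceeded 2; GC known for 99.9% of tested genes). The gene tests and the correction were tested on simulated data first. That simulation gave every gene the same setting for the spread between libraries. It does not show how the tests perform on genes that vary as the mitochondrial genes did. Nuclear copies were sought with BLAST 2.17.0 among GENCODE M21 transcripts, in place of the genome named in the plan, at 90% identity over 100 bases; 99% was called near-identical. Ratios were compared by exact permutation tests (scipy 1.17.1). At 17492085 to 22079844 gene counts per library, genes near 1 CPM rest on few reads, and a count of 0 in a library allows up to 3 counts, 0.136 to 0.172 CPM. Intervals cover counting error only.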

Additional observations from a re-analysis of the deposited data

Results flagged for a closer look

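Of 38 groups of 4 libraries examined for a lone extreme library, 7 held a library whose gap to its nearest neighbour passed the 95% limit of Dixon's ratio; chance marks about 1 group in 20, and the genes share libraries. In control, the highest library was control 5 in each case, with 5841 CPM of mt-Nd5 (other controls 1908 to 2287 CPM), 16.1 CPM of mt-Nd6 (3.44 to 4.68 CPM), 79.4 CPM of mt-Tt (7.73 to 14.4 CPM) and a tRNA share of gene counts of 0.0164% (0.00288% to 0.00498%). With malonyl-CoA, malonyl-CoA 5 was highest in mt-Cytb at 7986 CPM (other malonyl-CoA libraries 3255 to 3916 CPM), and so it was in the complex III share of gene counts, which is mt-Cytb alone, at 0.772% (0.329% to 0.402%). Within the coding mitochondrial counts, the complex III share was highest in malonyl-CoA 4, at 20.5% (18.4% to 18.7% in the others). Control 5 was also the library with the GC trend of -0.74 and malonyl-CoA 4 the one apart on the first principal component; their part in these values was not tested.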

How the results depend on the processing

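All 219 log2 fold changes of the tested mitochondrial genes under the alternatives were below 0 (-2.37 to -0.03), and none passed the threshold except mt-Tw with the replicate block (below). The difference in the share of all 37 genes was -0.718 percentage points of all tallied reads, -1.63 over coding genes, -0.895 without mt-Co1, -2.22 to -0.736 with any 1 library left out, -1.89 without both libraries numbered 4 and -0.478 without control 5 and malonyl-CoA 4. Over all genes the count of calls was 0 in the main test, 1 with no low-count filter, 81 with DESeq2 (64 higher, 17 lower), 126 with the replicate block (105 higher, 21 lower), 6 with the replicate block and GC correction (4 higher, 2 lower), and 0 to 1 with any 1 library left out (1 without control 3); the cause was not tested. The replicate numbers were not taken as pairing the samples: deviations of same-numbered libraries correlated at 0.43, 0.43, 0.75 and 0.052 for numbers 1, 3, 4 and 5, and malonyl-CoA 5 correlated best with control 1, the others with their own number. With that replicate block, 1 mitochondrial gene was called, mt-Tw (log2 fold change -1.04, adjusted p = 0.0467), beside 0.992% of all genes, and adjusted p over all 11 was 0.0467 to 0.218, or 0.0550 to 0.473 with GC correction. All 11 were lower with malonyl-CoA in each of the 4 same-numbered pairs. Members with few counts, the 26 not tested among them, are the ones that the counts limit most.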
